A study of Drosophila melanogaster with 24 samples.

Results

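The nubbin (nub) and pdm2 locus of the Drosophila melanogaster wing was examined through the open and E93-bound chromatin mapped along it. The locus was taken as the stretch of 2L from 12.56 to 12.7 Mb in the coordinates of the peak lists (dm3). Every peak of the 7 lists that touched this window was collected, and peaks that shared at least 1 bp were joined into merged regions. This gave 74 regions, numbered 1 to 74 along 2L, of 9938 on 2L and 54832 over all chromosomes. The regions covered 32051 bp, or 22.9% of the window, with a median length of 336 bp and a range of 129 to 1532 bp.

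The 6 accessibility lists came from FAIRE-seq (formaldehyde-assisted isolation of regulatory elements, which recovers DNA left free of protein after crosslinking) on wings dissected from staged females, at least 40 wings per sample. Wild-type wings carried w1118/y,w, hs-FLP; + ; + and were sampled with 3 replicates at each of 3 stages, which were the larval wing disc (L3, 3LW in the labels) and the pupal wing 24 h and 44 h after puparium formation. E93 mutant wings carried the allele E93-4 over the deficiency Df(3R)93FX2, with 2 replicates at each of the same stages. The ChIP list came from 2 samples of 700 or more wings of both sexes at 24 h. They carried yw/+; + ; Mi{MIC}Eip93F/+, in which 1 of the 2 copies of E93 is a GFP protein trap (E93-GFSTF), and the pulldown used an antibody to GFP. Genomic DNA of OregonR adult virgin females, from 1 sample, served as control reads. The replicates of each condition had been pooled into 1 peak list before deposition. Differences between lists therefore carry no replicate error, and none was tested. Peak names in the mutant L3 list give puparium formation (0 h) where the labels give L3, so the stage of that list is less certain than that of the others. The longest list, that of wild-type larvae, bears peak names that speak of a shortened set. The lists hold no RNA levels, so neither the tissue nor the loss of E93 could be checked in them.

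nub encodes a POU-domain transcription factor, also called Pdm1, and flies that lack its wing function have small wings with hinge defects. pdm2 is its neighbouring paralogue, and both genes are also known from the temporal series of transcription factors in neuroblasts. E93 (Eip93F) is an ecdysone-induced transcription factor of the pupal stages. Enhancers are stretches of DNA that bind transcription factors and act on nearby promoters, and in FAIRE-seq active ones usually appear as peaks.

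Each peak was described by its summit and by its rank. The deposited summit pileup, the number of extended reads stacked over the highest base, was divided by the scaling of its list to give whole reads. These carry a counting interval of 22.7 to 46.3 for 33 reads and of 186 to 245 for 214 reads (exact Poisson, 95%), and all intervals given here cover counting error only. The estimated depths differed, with 9.57, 17.5 and 14.5 M reads behind the wild-type larval and successive pupal lists, 5.44, 4.68 and 2.79 M behind the mutant lists and 20.6 M behind the ChIP list. If reads were extended to 125 bp and duplicates removed after pooling, a summit could hold at most 250 reads. Both conditions are assumed, and the highest summit in the window held 214. Because the depths differed, lists were compared by pileup rank, written as percent of the list from the top, so that a low value is a strong peak. Counting error carries over into the rank, since at wild-type 24 h a summit of 172 reads stood at 12.4% and one of 214 at 0.663%. The lists also differed in length, from 22786 peaks (mutant 44 h) to 39525 (wild-type L3) for FAIRE, with 8477 for ChIP. Their length and depth move with stage and genotype, and the part of these in each difference was not tested.

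The window held more peaks per Mb than 2L as a whole in each of the 7 lists. The larval wild-type list placed 57 peaks there (407.1 per Mb against 316.7 on 2L), the 24 h list 50 (357.1 against 227.6) and the 44 h list 36 (257.1 against 210.1). The mutant lists had 44, 40 and 31 peaks, or 314.3, 285.7 and 221.4 per Mb against 222.5, 203.0 and 167.9. The ChIP list had 22 peaks, 157.1 per Mb against 64.58. Such a density was not rare. Of 163 stretches of 140 kb along 2L, 51, 25 and 63 held at least as many wild-type peaks at L3, 24 h and 44 h, and 12 held at least as many ChIP peaks. The median rank of the peaks in the window was 30.6% at wild-type L3, 48.94% at 24 h and 49.39% at 44 h, so the larval peaks stood above the middle of their list and the pupal ones near it. In the mutant the medians were 36.9%, 42.5% and 51.58%.

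**Figure D1:**
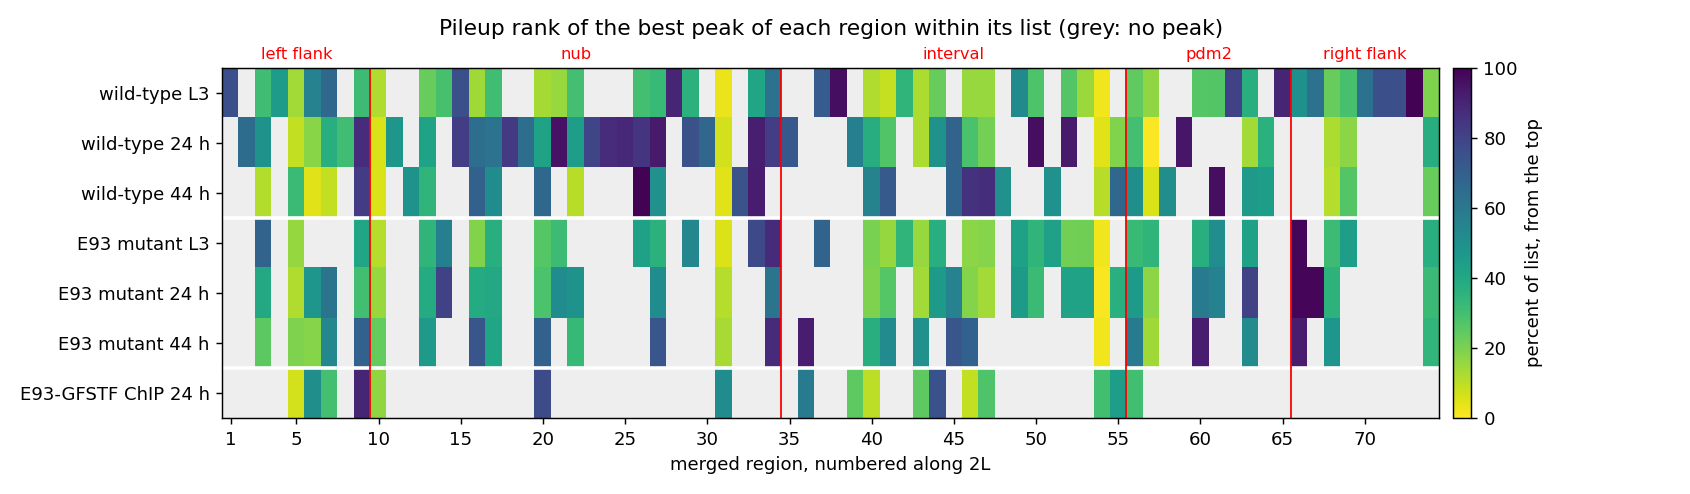
Pileup rank of the best peak of each of the 74 merged regions (columns, numbered along 2L) in each of the 7 lists (rows), coloured from 0% (top of the list, yellow) to 100% (dark blue), with grey where a list has no peak and red lines between the 5 stretches. Regions 10, 31, 54 and 57 stayed bright through the wild-type rows, while regions 40, 41, 46 and 47 darkened from L3 to 44 h and region 43 had no wild-type peak at 44 h.

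Of the 74 regions, 73 had a wild-type peak at some stage (98.65%, against 92.2% of all regions) and 46 had a mutant peak (62.16%, against 63.5%). The wild-type pattern was open at every stage for 26 of 73 regions (35.62%, 95% exact interval 24.75 to 47.69), against 29.2% of all regions with a wild-type peak. Another 18 were open at L3 only (24.66%, against 30.3%), 12 at 24 h only (16.44%, interval 8.793 to 26.95, against 7.73%), and 5 at 44 h only (6.849%, against 10.7%). Peaks at L3 and 24 h were found in 8 regions (10.96%, against 9.06%), at 24 h and 44 h in 3 (4.11%, against 8.07%), and at L3 and 44 h in 1 (1.37%, against 4.9%). With lists of equal length, 7 of 55 regions were open at 24 h only (12.73%, interval 5.274 to 24.48, against 9.51%), and with peaks of a −log10 q of at least 10, 5 of 46 (10.87%, against 10.9%), so that the share open at 24 h only did not stand apart from the background under either. Of the 12 regions, 7 lay in the span of nub, and their ranks ran from 30.7% for region 8 to 94.0%. All 6 FAIRE lists had a peak in 19 regions (25.68%, against 20.3%), where the summits lay within a median of 138 bp of each other (34 to 678 bp). Region 74 crosses the end of the window, and its peaks of wild type and mutant at 24 h and 44 h lie past that end.

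The regions were placed relative to genes with a RefSeq gene table of another genome release, on the assumption that the numbering of 2L is shared, so that a placement is coarse. By this placement 9 regions lay before nub, 25 in the span of nub, 21 between nub and pdm2, 10 in the span of pdm2 and 9 after it. Ref2, an RNA export factor, overlaps part of the span of nub and most of the interval.

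In the flank before nub, the median rank of the wild-type peaks was 45.3% at L3 (7 regions), 37.1% at 24 h (7 regions) and 11.4% at 44 h (5 regions). Over the 5 regions with a peak at every wild-type stage it was 31.5%, 37.1% and 11.4%, so that the median stood higher in the list at 44 h and not at 24 h. The mutant medians of the flank were 41.1%, 39.8% and 25.2%. Region 6 (2L:12580578-12581230) held 33 reads at wild-type L3, 158 (134 to 185) at 24 h and 185 (159 to 214) at 44 h, at ranks of 55.6%, 17.7% and 4.33%. Region 7 (2L:12581916-12582764), which overlaps the long noncoding RNA genes lncRNA:CR44595 and lncRNA:CR44596, held 30, 111 and 169 reads at 66.5%, 37.1% and 9.36%. Its wild-type summits lay at 12582235, 12582186 and 12582555, so the 44 h value is from another site of the region. In regions 6 and 7 the L3 interval lay below those of the pupal lists, but the L3 list was also the shallower one. In the mutant neither had a peak at L3. Region 6 reached 30 reads (47.3%) at 24 h and 56 reads (18.2%) at 44 h there, and region 7 reached 24 reads (61.4%) and 22 reads (53.9%). Both ranked lower in the mutant than in wild type at each stage at which both genotypes had a peak. For region 7 at 44 h the sites compared differ, since the mutant summit lay at 12582210. Region 5 (2L:12577861-12579307) behaved otherwise, with wild-type ranks of 13.9%, 9.1% and 31.7% and mutant ranks of 15.7%, 12% and 19.4%. Its best FAIRE summits lay up to 458 bp apart between lists, so these ranks are not all of 1 site. Region 5 also had the ChIP summit with the most reads in the window, 149 (126 to 175) at rank 571 of 8477, or 6.74%. Region 8 (2L:12584902-12585252) had a peak in wild type at 24 h alone, with 125 reads (104 to 149) at 30.7%.

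Within the span of nub most of the 25 regions were weak at 24 h, and a few were strong throughout. Region 31 (2L:12617603-12618885), in the part shared with Ref2, held 147, 189 and 185 reads in wild type at ranks of 2.92%, 6.73% and 4.33%. In the mutant it held 104, 86 and 66 reads at 5.11%, 11% and 12.9%. Region 10 (2L:12586734-12587896), over the low-coordinate end of nub, had wild-type ranks of 11.9%, 5.47% and 5.8% and mutant ranks of 11.1%, 15.6% and 23.6%. The best FAIRE summits of region 10 lay up to 492 bp apart between lists. Regions 31 and 10 ranked high at each wild-type stage and lower in the pupal mutant lists than in the wild-type ones. Region 22 (2L:12602837-12603239) held 49 reads (29.8%) at L3, 98 reads (43.8%) at 24 h and 165 reads (10.6%) at 44 h, and so ranked lower at 24 h than at L3 and highest at 44 h. It had no mutant peak at L3, and its mutant summits of 29 reads (49.1%) at 24 h and 36 reads (32.9%) at 44 h stood lower in their lists. Region 12 (2L:12590333-12590515) was open at 44 h in wild type alone, with 78 reads at 48.8%. Over the span as a whole, the median rank of the peaks went from 29.8% at L3 to 75% at 24 h and 50.4% at 44 h in wild type, and from 35.7% to 39.8% and 45.9% in the mutant. The 24 h medians rest on different regions, 21 in wild type and 11 in the mutant. Of the 14 regions with a wild-type peak at both L3 and 24 h, 13 ranked lower at 24 h, where 70.4% of all such regions did so. A fall of at least 20 points was seen in 8 of the 14, against 33.4% of all such regions.

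The interval between nub and pdm2 lost rank with age in wild type. The mutant medians moved the same way, but its single regions were divided from L3 to 24 h. Of its 21 regions, 8 ranked in the top 25% of the L3 list, 4 in that of the 24 h list and 1 in that of the 44 h list, and the median rank of the peaks went from 19.4% to 37.7% and 66.7%. All 9 regions with peaks at both L3 and 24 h ranked lower at 24 h, where 70.4% of all such regions did so. Of the 7 with peaks at both 24 h and 44 h, 6 ranked lower at 44 h, where 47.4% of all such regions did so. The 5 regions with a peak at every wild-type stage ranked lower at both steps. Over the whole window 13 of 34 regions lost at least 20 points from L3 to 24 h (38.24%, against 33.4%). From 24 h to 44 h the same limit was passed by 8 of 29 regions (27.59%, interval 12.73 to 47.24), against 15.0% of all such regions, and 4 of the 8 lay in this interval. At a limit of 30 points it was 5 of 29 (17.24%, interval 5.846 to 35.77, against 9.63%). In the mutant the interval had 8, 5 and 1 regions in the top 25%, with medians of 21.55%, 31.9% and 51.6%. These medians rest on different regions, 14, 13 and 7 of them. With mutant peaks at both L3 and 24 h, regions 41, 44, 46, 49, 52 and 53 ranked lower at 24 h. Regions 40, 43, 47, 50 and 54 ranked higher. Lower ranks at 24 h were found in 20 of 32 such regions over the window (62.5%, against 60.2%). Over the window 5 of 32 mutant regions lost at least 20 points from L3 to 24 h (15.62%, against 14.9%). From 24 h to 44 h it was 9 of 27 (33.33%, interval 16.52 to 53.96, against 18.7%).

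A run of regions over Ref2 showed the wild-type decline most clearly. Region 41 (2L:12635593-12636339) held 108 reads (8.91%) at L3, 133 reads (27.3%) at 24 h and 53 reads (71.7%) at 44 h in wild type. Region 46 (2L:12645650-12646204) held 80 reads (15.5%), then 130 (28.6%) and then 44 (32.0 to 59.1, 85.4%). Region 47 (2L:12646351-12647174) held 80 reads (15.5%), then 149 (21.0%) and then 43 (87.1%). In each of these 3 regions the counting intervals at 24 h and 44 h did not overlap, at depths of 17.5 and 14.5 M reads. Region 43 (2L:12640209-12640689) ranked at 12.3% and 12.4% with 92 and 172 reads and had no wild-type peak at 44 h. Region 40 (2L:12634853-12635322) went from 94 reads (11.9%) to 110 (37.7%) and 69 (55.1%).

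In the mutant region 41 also ranked lower at each later stage. Region 46 stayed nearly level there from L3 to 24 h and ranked lower at 44 h. Region 41 ranked there at 15.7%, 26.2% and 51.6% with 67, 51 and 23 reads. Region 46 ranked at 17.4%, 18.5% and 69.1% with 63, 66 and 17 reads. Region 47 ranked at 18.3% at L3 and 14.0% at 24 h and had no mutant peak at 44 h, in the shallowest list. Region 43 kept a mutant peak at 44 h, of 24 reads at 49.5%, where wild type had none. Region 40 stood at 20.3%, 19.4% and 37.1%.

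Region 54 (2L:12655528-12656182), between genes on the side of pdm2, was the top FAIRE region of the interval in each of the 6 lists and of the window at wild-type L3 and at all 3 mutant stages. It held 155 reads (132 to 181) at wild-type L3, 196 at 24 h and 165 at 44 h, at ranks of 2.12%, 4.5% and 10.6%. In the mutant it held 124, 135 (113 to 160) and 102 reads at 1.97%, 0.903% and 1.96%, which at 24 h is rank 237 of 26239. It was thus among the top 25% of each of the 6 FAIRE lists.

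Regions with a FAIRE peak at a single wild-type stage were also found in the interval. Region 39 (2L:12633953-12634363) had a FAIRE peak in wild type at 24 h alone, of 78 reads at 56.8%, and carried an E93-GFSTF peak of 103 reads at 24.7%. Region 51 (2L:12649924-12650189) had a peak in wild type at 44 h alone, of 77 reads at 49.4%, and a mutant peak at L3 of 31 reads (42.8%), the 1 region of the window with a mutant and no wild-type peak at that stage (1.852% of 54, against 8.02% of all such regions).

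The span of pdm2 held the top peak of the window. Region 57 (2L:12660198-12660958) had 76 reads (16.7%) at wild-type L3, 214 (0.663%, rank 197 of 29731) at 24 h and 181 (5.5%) at 44 h. In the mutant it had 37 reads (34.5%), 69 (17.3%) and 63 (14.4%), lower in the list at every stage, and it had no ChIP peak. Region 56 (2L:12657491-12658399) had wild-type ranks of 24.4%, 29.9% and 50.1% with 57, 127 and 76 reads, and mutant ranks of 32.4%, 45.6% and 59.1%. Its wild-type summit at 24 h (12658283) lay at another site than those at L3 (12657619) and 44 h (12657652). Region 56 carried the ChIP peak of the span, of 95 reads at 30.4%, with a fold enrichment of 2.28 beside a list median of 3.008. Region 63 (2L:12678312-12678690), singled out after its values were seen, was at its highest at wild-type 24 h, with 168 reads (13.9%), beside 42 (37.1%) at L3 and 82 (46.4%) at 44 h. Its mutant summit at 24 h held 19 reads (80.1%). Wherever both genotypes had a peak in this span at the same stage, the mutant one ranked lower, in 5 of 5 larval regions and in 3 of 3 at each pupal stage. The same was so for 82.9%, 50.5% and 57.9% of all regions with both peaks, and with so few regions nothing is read from these counts.

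The flank after pdm2 holds other genes, among them CCT4 (a chaperonin subunit), IFT43 (intraflagellar transport) and PICK1. Region 69 (2L:12694671-12695112), at IFT43 and PICK1, held 50, 159 and 124 reads in wild type at ranks of 29.0%, 17.2% and 26.6%. Its fold enrichment was only 2.56, 4.43 and 4.17, beside list medians of 3.008, 3.875 and 4.065. The control held 106.3 reads per kb there, against 82.05 on 2L, and pileup rank takes no account of this. Region 69 had 30 reads (44.5%) in the mutant at L3 and no mutant peak at either pupal stage. Region 68 (2L:12692756-12693285), at CCT4 and CG6153 and singled out after its values were seen, ranked at 23.3%, 12.4% and 11% in wild type and at 31.4%, 35.5% and 47.6% in the mutant. No ChIP peak was called in this flank.

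**Figure D2:**
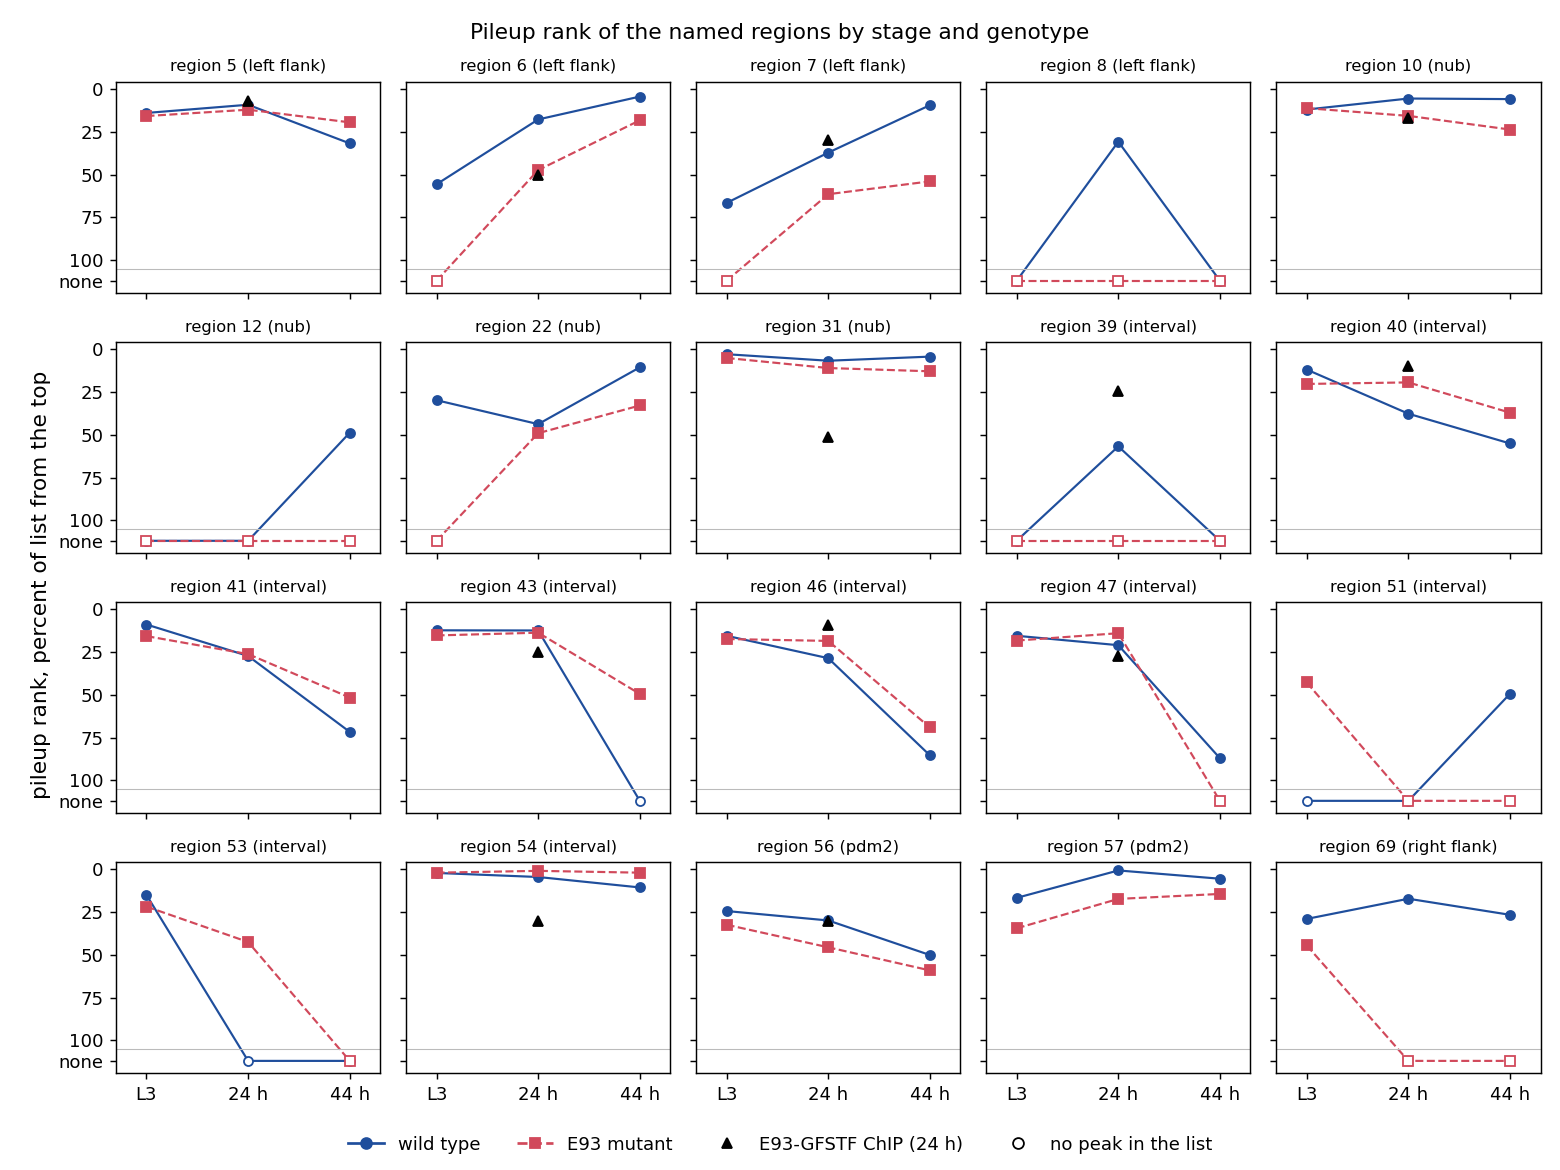
Pileup rank (vertical axis, percent of the list from the top, top of the list uppermost) of the 20 regions named by rule at L3, 24 h and 44 h, for wild type (blue circles), E93 mutant (red squares) and E93-GFSTF ChIP at 24 h (black triangles), with open symbols where a list has no peak and no error bars because each point is 1 pooled list. Regions 6 and 7 climb from stage to stage in wild type, to 4.33% and 9.36% at 44 h. The wild-type summit of region 7 lies at another site at 44 h than at L3 and 24 h. Region 41 sinks from stage to stage in both genotypes. Region 46 does so in wild type, while in the mutant it is nearly level from L3 to 24 h and lower at 44 h.

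The genotypes were compared at each stage, since the wild-type and mutant lists ask which peaks of the locus are called without E93. At L3, 42 of 57 wild-type peaks overlapped a mutant peak (73.68%, interval 60.34 to 84.46), against 61.3% of the whole list. At 24 h it was 32 of 50 (64.0%, interval 49.19 to 77.08, against 65.4%), and at 44 h 23 of 36 (63.89%, interval 46.22 to 79.18, against 61.7%). The pupal shares lay near the background. An overlap of 50% of both peaks gave 48.0% at 24 h (against 52.4%). In the other direction 43 of 44 mutant peaks at L3 overlapped a wild-type peak (97.73%, against 87.6%), 33 of 40 at 24 h (82.5%, against 76.4%) and 25 of 31 at 44 h (80.65%, against 80.4%). Region 36 alone had a mutant FAIRE peak, of 12 reads at 44 h, and no wild-type one at any stage, against 7.56% of all regions.

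At 24 h, 56 regions were open in either genotype. Of these 18 had a wild-type peak alone (32.14%, interval 20.29 to 45.96, against 28.4%) and 7 a mutant peak alone (12.5%, interval 5.176 to 24.07, against 16.7%). Those 7 regions, numbered 14, 49, 53, 60, 61, 66 and 67, all had a wild-type peak at L3. Over all chromosomes 3615 of 5461 such regions had one. Regions 66 and 67 stood near the foot of the mutant 24 h list, with 14 reads each at 98.4%, and region 14 held 19 reads (80.1%). Of the 19 regions with a peak at wild-type L3 and none at wild-type 24 h, 7 thus had one in the mutant at 24 h (36.84%, interval 16.29 to 61.64), against 20.3% of all such regions, a value within the interval. With lists of equal length, which leave out some wild-type 24 h peaks by construction, it was 10 of 16 (62.5%, interval 35.43 to 84.8, against 36.2%). With peaks of a −log10 q of at least 10 it was 7 of 14 (50.0%, interval 23.04 to 76.96, against 29.2%). The background lay within the interval under these settings too. Region 53 (2L:12651585-12652032) ranked highest of the 7 in the mutant at 24 h. It held 82 reads (15.0%) at wild-type L3, 54 (21.8%) in the mutant at L3 and 33 (22.7 to 46.3, 42.5%) in the mutant at 24 h, with no peak at wild-type 24 h from a deeper list. Of the 15 regions open at wild-type 24 h and not at L3, 2 had a mutant peak at 24 h (13.33%, interval 1.658 to 40.46, against 24.3%). Of the 34 open at both, 29 did (85.29%, against 83.0%). Mutant 24 h peaks overlapped a wild-type L3 peak in 38 of 40 cases (95%, interval 83.08 to 99.39, against 83.5%).

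Among the 31 regions with a peak of both genotypes at 24 h, 8 ranked at least 20 points higher in the list in the mutant (25.81%, interval 11.86 to 44.61, against 14.3%) and 4 at least 20 points lower (12.9%, against 15.6%). The 8 became 5 of 31 at a limit of 30 points (16.13%, interval 5.452 to 33.73, against 7.34%) and 5 of 24 with lists of equal length (20.83%, against 18.1%). The first group was regions 9, 16, 17, 21, 27, 34, 50 and 52, of which 5 lay in the span of nub. Region 50 (2L:12649068-12649401) and region 52 (2L:12651095-12651430), in the interval beside region 53, were singled out after their values were seen. Region 50 held 52 reads (27.5%) at wild-type L3, 44 (96.2%) at wild-type 24 h and 43 (31.9%) in the mutant at 24 h. Region 52 held 53 (26.8%), 47 (92.8%) and 33 (42.5%). Their fold enrichment at 24 h was 2.16 and 2.35 in wild type and 7.11 and 5.65 in the mutant. The medians of these lists were 3.875 in wild type and 4.571 in the mutant. Regions 49, 50, 52 and 53, picked for the pattern after their values were seen, had wild-type L3 ranks of 52.6%, 27.5%, 26.8% and 15.0%. They ranked at 92.8% or lower, or had no peak, at wild-type 24 h. In the mutant at 24 h they ranked between 31.9% and 45.6%. None of the 4 had a ChIP peak, but only 13.6% of all regions and 22.97% of the window's had one. Nothing is read from this. Region 51, which lies among them, had neither a wild-type L3 peak nor a mutant 24 h peak. The second group was regions 6, 7, 63 and 68. Within the interval 9 of 11 regions ranked higher in the mutant than in wild type at 24 h, while 50.5% of all regions with both peaks ranked lower in the mutant.

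**Figure D3:**
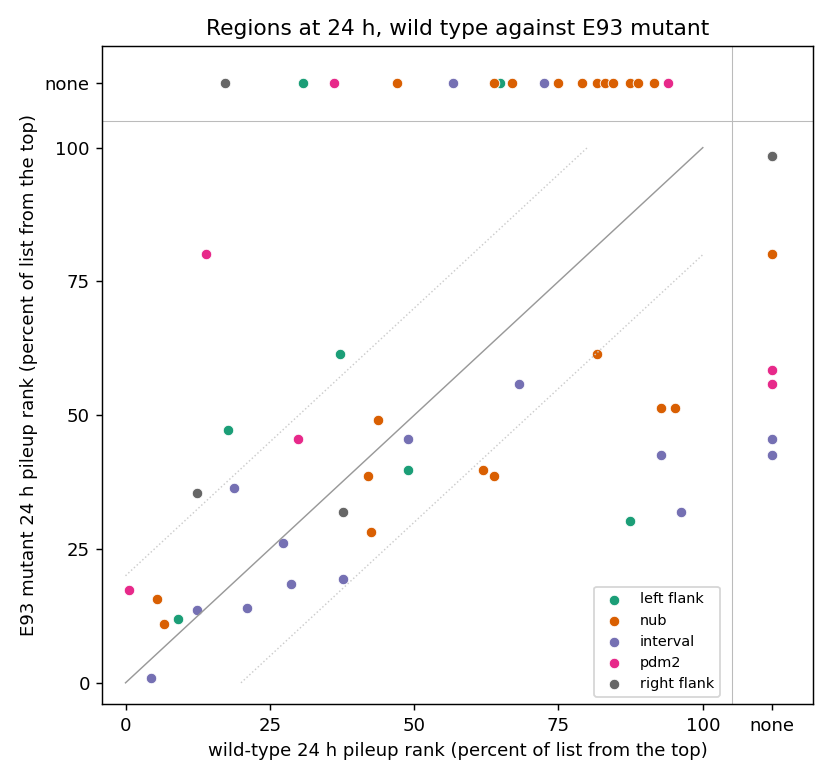
Pileup rank of each region at 24 h in wild type (horizontal axis) and E93 mutant (vertical axis), both in percent of the list from the top, coloured by stretch, with regions without a peak in 1 genotype set apart as none, a solid line of equal rank and dotted lines 20 points to either side. Below the lower dotted line lie the 8 regions that ranked higher in the mutant, above the upper one the 4 that ranked lower, and 18 regions had a wild-type peak alone.

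E93-GFSTF ChIP peaks were called in 17 of the 74 regions (22.97%, interval 13.99 to 34.21), against 13.6% of all regions. Of the 17, 4 lay before nub, 3 in its span, 9 in the interval and 1 in the span of pdm2. A wild-type 24 h peak overlapped 21 of the 22 ChIP peaks (95.45%, against 95.8%), and the ChIP summit lay a median of 141 bp from the nearest wild-type 24 h summit (4 to 914 bp), with 9 of 22 within 100 bp, while the median of the whole list was 97 bp. The exception was the ChIP peak of region 36, with 72 reads at 58.5%. Of the ChIP peaks, 17 of 22 overlapped a mutant 24 h peak (77.27%, interval 54.63 to 92.18, against 86.2%), so most of the bound sites were also called open without E93.

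After region 5, the strongest ChIP summits lay in the interval. Region 46 held 138 ChIP reads (116 to 163) at 9.37% and region 40 held 136 (114 to 161) at 10.1%. Region 10, at the low-coordinate end of nub, held 118 (97.7 to 141) at 16.6%. Their intervals overlap each other and that of region 5 (126 to 175). The order of regions 5, 46, 40 and 10 is therefore not fixed by the counts. Regions 39 and 43 held 103 reads each (24.7%) and region 47 held 99 (27.5%). Region 7 held 96 (29.7%), and regions 54 and 56 held 95 each (30.4%). The fold enrichment was 3.68 in region 54 and 2.28 in region 56, beside a list median of 3.008. Further down, region 6 held 77 (50.0%) and region 31 held 76 (51.5%). In wild-type 24 h FAIRE, regions 31 and 54 ranked at 6.73% and 4.5%, higher than in ChIP. Region 57, the top peak of that list in the window, had no ChIP peak. Regions 5 and 10 ranked high in both, at 9.1% and 5.47% in FAIRE and 6.74% and 16.6% in ChIP.

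The share of FAIRE peaks with a ChIP peak was above that of the whole list in each of the 6 lists. In wild type it was 15 of 57 at L3 (26.32%, interval 15.54 to 39.66, against 16.5%), 17 of 50 at 24 h (34%, interval 21.21 to 48.77, against 25.7%) and 15 of 36 at 44 h (41.67%, interval 25.51 to 59.24, against 22.0%). In the mutant it was 14 of 44 (31.82%, interval 18.61 to 47.58, against 22.1%), 15 of 40 (37.5%, interval 22.73 to 54.2, against 26.7%) and 15 of 31 (48.39%, interval 30.15 to 66.94, against 29.0%). The background lay below the interval at 44 h in both genotypes and within it at L3 and 24 h. The wild-type share at 44 h was 20.83% (interval 7.132 to 42.15, against 12%) when only peaks with a −log10 q of at least 10 were kept and 13.89% (interval 4.668 to 29.5, against 11.4%) when an overlap of 50% of both peaks was required, with the background within both intervals. The shares of the 6 lists are not independent, since they meet the same 22 ChIP peaks.

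**Figure D4:**
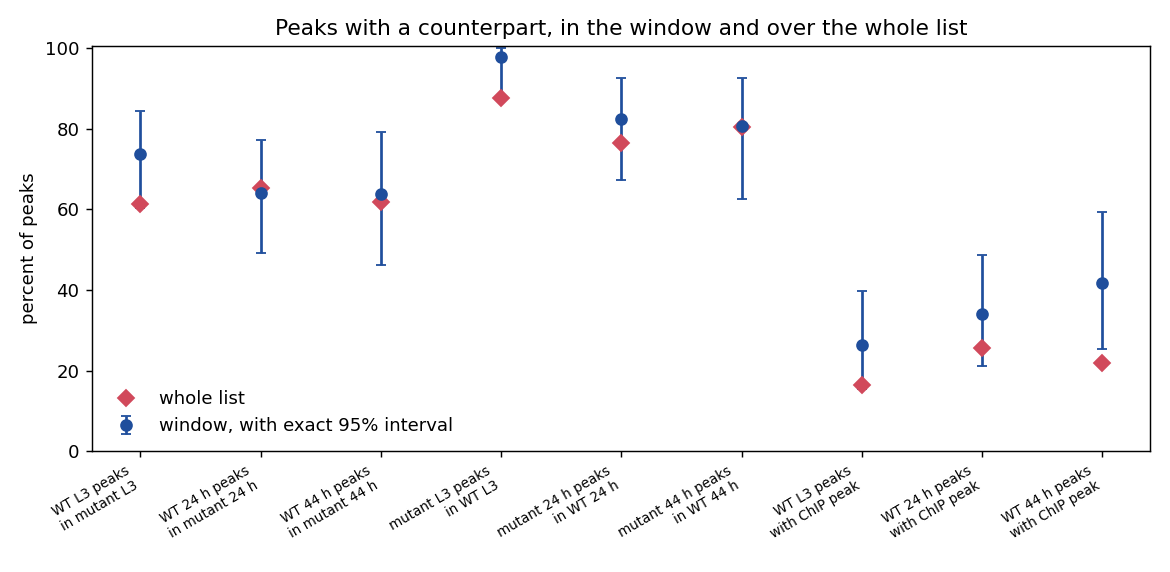
Percent of peaks with a counterpart in another list (vertical axis), for peaks in the window (blue circles with exact 95% intervals for counting error) and for the whole list (red diamonds), in 9 comparisons of wild type, E93 mutant and ChIP. The whole-list value lies below the interval for wild-type 44 h peaks with a ChIP peak (22.0% against 41.67%) and, narrowly, for mutant L3 peaks found in wild type (87.6% against 97.73%), and near the window's value for wild-type pupal peaks found in the mutant.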

How the data were processed

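Peak lists of wing FAIRE-seq (6 lists) and E93-GFSTF ChIP-seq (1 list), with replicates pooled by the authors, were read as deposited. The submitters' processing notes name the build dm3 and the tools Bowtie2 2.2.8, SAMtools 1.3.1, Picard 2.2.4, bedtools 2.25.0, deepTools 2.24.0 and MACS2, with no parameters given in the sources used here. Each list gives, as deposited, a summit pileup (coverage signal), a −log10 p, a −log10 q and a fold enrichment ratio over control. The deposited control reads carry a mapping score, which was not used as a measurement. RNA-seq samples were not analysed here, and no genome of the lists' build was used, so no sequence is shown.

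Peaks of all lists were merged at an overlap of 1 bp over all chromosomes, ranked within each list by pileup, and divided by the smallest pileup step of the list to give reads. All values came out whole within a tolerance of 0.006 (100%). Depth was estimated from the background pileup taking reads as 125 bp long after extension, over 120 Mb. Shares carry exact (Clopper-Pearson) and reads exact Poisson 95% intervals. No test was made, since each condition has 1 list.

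Genes come from a RefSeq table of Release 6. Around the window, pairs of summit and gene end were most frequent at a shift of 0 bp for wild-type 24 h (144, against a median of 55 over shifts) and 44 h (153 against 55) and of -400 bp at L3 (136 against 93), searched within 20 kb in bins of 200 bp.

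Regions were named by a rule: the 3 highest in each list, those of the 10 highest ChIP peaks, and the highest present in 1 genotype or in 1 wild-type stage alone. The window, members and lists were chosen with earlier results of these data known. Alternatives were a −log10 q of at least 10, other overlaps, gaps and ranks, and lists of equal length. The overlap code was tested on simulated lists (Python 3.11.15, numpy 2.4.6, pandas 2.3.3, scipy 1.17.1, matplotlib 3.10.9).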

Additional observations from a re-analysis of the deposited data

How the results depend on the processing

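Of 73 alternative values, 52 stayed near the main one and 21 moved, for causes that were not tested beyond the smaller lists by construction. Limited to peaks with −log10 q at 10 or above, the window kept 35 peaks at wild-type L3, 29 at 24 h, 18 at mutant 44 h and 9 of ChIP, in 47 regions. The wild-type pattern then counted 13 regions open at every stage, 5 at 24 h only, 3 at 44 h only, 2 at L3 and 44 h and 5 at 24 h and 44 h, and the share of wild-type 44 h peaks with a ChIP peak was 20.83%. With lists of equal length (22786 peaks), 7 regions were open at 24 h only, 5 at L3 and 24 h and 2 at L3 and 44 h, and 85.71% of wild-type L3 peaks were found in the mutant. An overlap of 50% of both peaks gave 48.0% for wild-type 24 h peaks found in the mutant and 13.89% for wild-type 44 h peaks with a ChIP peak.

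Further alternatives were chosen after seeing the data. At a limit of 30 points, 5 regions lost rank from wild-type 24 h to 44 h and 5 ranked higher in the mutant at 24 h. With lists of equal length 5 ranked higher in the mutant, and 62.5% of regions with a wild-type peak at L3 and none at 24 h had a mutant 24 h peak.

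No paired analysis was possible because the replicates reach the lists merged, 1 list per condition. Leaving out single replicates was not run, as their peaks are not separate. The mutant lists are the shallowest, so a missing mutant peak is not shown to be absent.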

Other observations

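The control genomic DNA covered the locus much like the rest of the arm. It had 81.55 reads per kb in the window, 82.05 on 2L and 76.1 within the 74 regions, and single regions ranged from 27.21 (region 70) to 137.9 (region 23) reads per kb.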
